A study of Mus musculus with 5 samples.

Results

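The genes described here are 49 mouse genes that act in G2 and M phase, the stretch of the cell cycle in which a cell prepares for and carries out division. They were taken from a list of names and matched by Ensembl identifier to the GENCODE M21 symbols of the deposited counts, and all 49 were among the 12934 genes listed. All 49 also passed edgeR's expression filter, so that each was among the 12483 genes tested. Their lowest count in any library was 215.

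The cells were EpH4, an immortalized mouse mammary epithelial line from a BALB/c animal, grown in DMEM with serum. Both groups carried Cas9 by lentiviral transduction and blasticidin selection, and then received a control sgRNA (sgControl, 3 libraries) or an sgRNA against Mef2d (sgMef2d, 2 libraries) with puromycin selection. The study calls the selected cells stable clones. The labels do not say which sgRNA each sgMef2d library carried, nor whether the libraries came from separate cultures, so the p-values measure only the spread between these libraries. Each poly(A)-selected library held between 13601145 and 20498563 counts. Mef2d itself reached 64.3, 76.9 and 71.5 CPM (counts scaled to library size with edgeR's TMM factors) in the sgControl libraries and 64.2 and 65.8 CPM in the sgMef2d libraries, a log2 fold change of -0.12 (edgeR quasi-likelihood adjusted p = 0.400), and sgControl replicate 1 lay at the level of the sgMef2d libraries. Over 15 alternative settings the log2 fold change of Mef2d ran from -0.19 to -0.06 and passed an adjusted p of 0.05 in 1 of them, without sgControl replicate 1 (edgeR quasi-likelihood adjusted p = 0.00550). A count per gene does not read the sequence that Cas9 cut. The study reports, from an immunoblot, that MEF2D protein was absent from its EpH4 knockout cells. The mammary epithelial markers Epcam, Cdh1, Krt8, Krt18 and Cldn4 summed to between 2289 and 2395 CPM in sgControl and to 2272 and 2346 CPM in sgMef2d, but Krt18 fell from a mean of 705 to 591 CPM and Cldn4 rose from 160 to 192 CPM (edgeR quasi-likelihood adjusted p = 0.0207 and 0.0407). Of 3 endothelial and 3 skeletal muscle markers none was listed, and of 4 immune markers only Csf1r was, at up to 3.33 CPM. The 4 fibroblast markers summed to between 160 and 238 CPM in sgControl and to 240 and 272 CPM in sgMef2d, most of it Col1a1, while Col3a1 and Dcn passed the threshold, from means of 1.85 and 1.38 CPM to 5.03 and 3.39 CPM. Pdgfra, the fourth, was lower in both sgMef2d libraries than in every sgControl library, with means of 33.9 CPM in sgControl and 28.4 CPM in sgMef2d (edgeR quasi-likelihood adjusted p = 0.106). Their part in the results on the mitotic genes was not tested.

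Entry into mitosis is driven by the kinase CDK1 bound to cyclin A or cyclin B, which CDC25 phosphatases switch on. Polo-like and Aurora kinases then mature the centrosomes, build the spindle and correct its attachments to the kinetochores, the spindle checkpoint holds the cell until every chromosome is attached, and the anaphase-promoting complex (APC/C) with CDC20 triggers the separation of the chromatids. Most of these genes are transcribed together late in the cycle, through the MuvB complex with B-MYB and FOXM1, which bind promoters with a CHR element (cell cycle genes homology region) and CCAAT boxes, and their RNA level in a growing culture is widely read as a measure of how many cells are dividing.

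The G2 and M phase genes were slightly higher in sgMef2d than in sgControl. The log2 fold change was above 0 in 42 of the 49 members and below 0 in 7, with a median of 0.11, a difference of 8.11%, whereas 50.7% of all genes tested were above 0 and their median was 0.0031. In bulk RNA a larger share of cells in a phase and more RNA per cell in that phase cannot be told apart. Passing the threshold, an adjusted p below 0.05 in the edgeR quasi-likelihood test with Benjamini-Hochberg adjustment over all genes tested, were 5 members, Aurkb, Cdc25b, Plk1, Aurka and Cdc20, all higher in sgMef2d, and 0 members lower. This was 10.2% of the members, where 7.95% of all genes tested passed in either direction, 3.67% higher and 4.28% lower. With the p left unadjusted and a limit of 0.05, 18 members lay higher in sgMef2d and 0 lay lower, beside 11.2% of all genes tested that were higher at that p. The groups did not overlap in 23 members. In 22 of these both sgMef2d libraries lay above every sgControl library, as in 20.6% of all genes tested, and in 1, Smc4, they lay below, as in 20.5%.

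**Figure D1:**
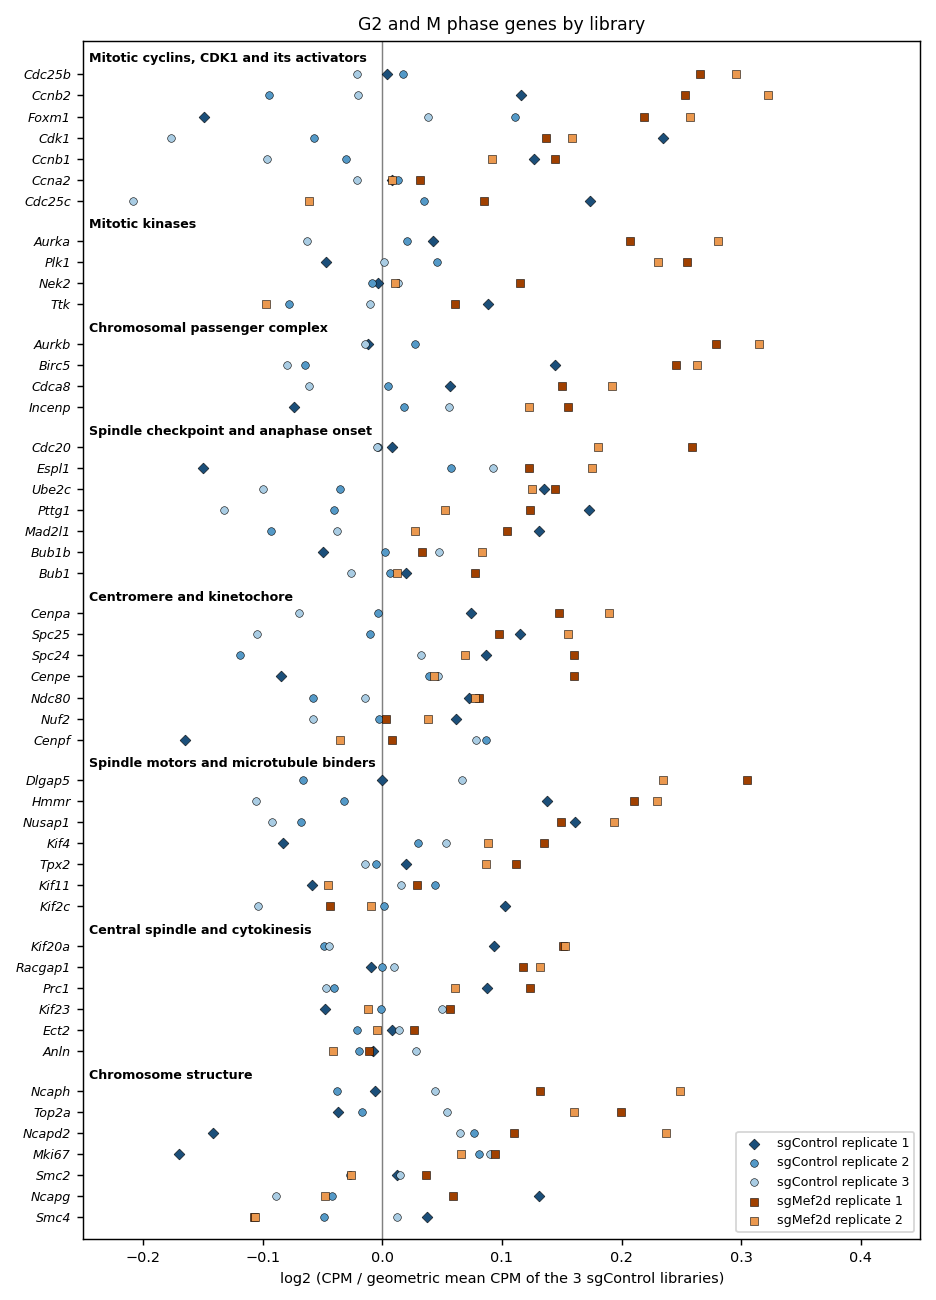
Each row is a G2 or M phase gene, grouped by role, and each point is a library (diamond, sgControl replicate 1; circles, sgControl replicates 2 and 3; squares, sgMef2d), placed on the x axis by the log2 ratio of its CPM to the geometric mean of the 3 sgControl libraries. In 22 of the 49 rows both squares lie to the right of all sgControl points, and the diamond is often at one end of the sgControl points.

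For single members, the 95% interval of the log2 fold change had a half-width between 0.12 and 0.26, and it excluded 0 in 18 of the 49 members. Over the 49 members the intervals ran from -0.27 at the lowest bound, for Cdc25c, to 0.48 at the highest, for Ccnb2, which are fold changes of 0.832 and 1.40. The relative spread (SD over mean) of a member had a median of 4.97% among the 3 sgControl libraries and of 2.17% between the sgMef2d libraries. The members together took between 0.846% and 0.850% of the counts of the sgControl libraries, and 0.910% and 0.897% of those of sgMef2d replicates 1 and 2. The median over the members of the log2 ratio to the sgControl mean was 0.020, -0.0056 and -0.015 in the sgControl libraries (SD 0.018) and 0.12 and 0.088 in the sgMef2d libraries, without overlap.

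The sgControl libraries were not alike for these genes. sgControl replicate 1 was the highest of the sgControl libraries in 26 members and the lowest in 14. Cdk1 in replicate 1 was 27.5% above the mean of replicates 2 and 3, and Mki67 was 16.2% below it. Over the 49 members this deviation had a Pearson correlation of -0.43 with the log2 exonic length of the gene (-0.20 over all genes tested). The fitted log2 fold change of the members had the same correlation with length, -0.43, and the 5 members past the threshold had a median exonic length of 2531 bases, against 5298 bases for the other 44. The members share the libraries, so these are descriptions, and the part of length in the calls was not tested. Without sgControl replicate 1 the same test called 25 members higher and 0 lower (14.6% of all genes tested were higher), and without sgControl replicate 2 it called only Aurkb (2.4% were higher). Without sgControl replicate 3 it called Aurkb and Cdc25b (3.14% were higher). With sgMef2d replicate 1 or 2 left out, 0 members passed (1.06% and 1.07% were higher). In an alternative chosen after seeing the data, each library's trend with exonic length and GC content was removed, and 10 members were higher and 0 lower (5.1% of all genes tested were higher). Most of the 15 alternative settings kept all 5 libraries. Over these 15, Aurkb passed in 13, Cdc25b in 12, Plk1 in 10, Aurka in 10 and Cdc20 in 9. The median of the 49 members stayed between 0.08 and 0.14 throughout.

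**Figure D2:**
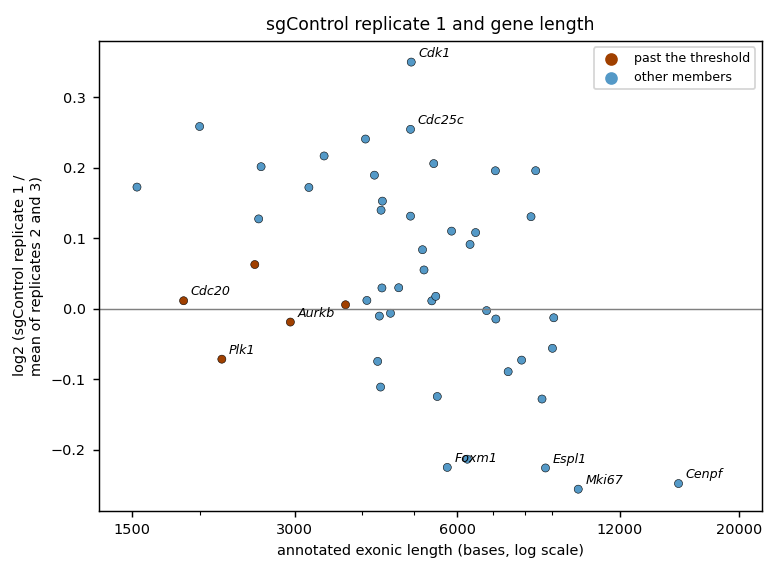
For each of the 49 members, the log2 ratio of the CPM of sgControl replicate 1 to the mean of sgControl replicates 2 and 3 is plotted against the annotated exonic length in bases (log scale), with the 5 members past the threshold in brown. Long genes such as Mki67 and Cenpf lie below 0 and Cdk1 and Cdc25c above it, with a Pearson correlation of -0.43, while the 5 members past the threshold lie near 0.

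The promoters of these genes share sequence features that the choice of members did not use. RefSeq promoter windows of GRCm38.p6, from 250 bases before to 50 bases after the start of transcription, were found for 39 of the 49 members (41 windows, since Ect2 and Prc1 have 2 each). Tpx2, Spc24, Ccna2, Kif20a, Aurkb, Smc4, Dlgap5, Foxm1, Incenp and Cdc25c had none in the table. They were searched on both strands for the CCAAT box, whose letters read ATTGG when it lies on the opposite strand. They were also searched for a CHR, taken either as the letters TTTGAA, which read TTCAAA when they lie on the opposite strand, or as the palindromic form with the letters TTCGAA. A CHR match was found in 32 of the 41 windows (78.0%), beside 19.2% of all 32851 windows and 13.9% of the windows of genes tested. A CCAAT match was found in 32 (78.0%), beside 37.4% and 38.4%, and both kinds in 29 (70.7%), beside 7.53% and 5.81%. A CHR match within the last 100 bases of the window, around the start, occurred in 29 member windows (70.7%) and in 5.31% of all windows. In 1 of the 41 member windows a CCAAT match and a CHR match shared bases, as in 0.146% of all windows. These are matches of letters, not sites shown to be bound. Only the letters given were searched, so a window without a match is not shown to lack a CHR.

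The windows printed here are those of the 4 members past the threshold that have one, Plk1 (chr7:122159185-122159484, plus strand), Aurka (chr2:172370521-172370820, minus strand), Cdc25b (chr2:131186698-131186997, plus strand) and Cdc20 (chr4:118437294-118437593, minus strand), each with both kinds of match, and for comparison those of Top2a (chr11:99024140-99024439, minus strand), which holds several matches of each kind, and Ccnb1 (chr13:100786437-100786736, minus strand), which has CCAAT matches only. Capitals mark the CCAAT and CHR matches, and the sequences run 5′ to 3′ along the gene.
Plk1: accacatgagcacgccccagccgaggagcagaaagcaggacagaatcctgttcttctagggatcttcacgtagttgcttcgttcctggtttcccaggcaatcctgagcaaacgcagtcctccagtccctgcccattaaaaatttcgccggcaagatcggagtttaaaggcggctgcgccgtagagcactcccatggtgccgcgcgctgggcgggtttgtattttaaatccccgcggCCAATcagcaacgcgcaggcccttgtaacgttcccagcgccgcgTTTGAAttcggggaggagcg
Aurka: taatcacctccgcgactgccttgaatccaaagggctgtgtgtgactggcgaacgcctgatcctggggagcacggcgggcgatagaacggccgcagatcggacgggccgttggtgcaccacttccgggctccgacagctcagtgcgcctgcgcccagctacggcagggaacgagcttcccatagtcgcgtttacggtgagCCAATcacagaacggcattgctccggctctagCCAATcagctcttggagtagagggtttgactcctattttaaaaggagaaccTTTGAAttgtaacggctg
Cdc25b: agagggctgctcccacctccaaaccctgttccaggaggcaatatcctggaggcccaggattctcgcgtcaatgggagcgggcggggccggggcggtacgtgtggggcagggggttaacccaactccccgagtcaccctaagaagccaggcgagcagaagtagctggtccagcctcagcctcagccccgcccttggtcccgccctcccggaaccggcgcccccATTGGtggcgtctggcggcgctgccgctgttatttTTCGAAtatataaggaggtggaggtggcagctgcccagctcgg
Cdc20: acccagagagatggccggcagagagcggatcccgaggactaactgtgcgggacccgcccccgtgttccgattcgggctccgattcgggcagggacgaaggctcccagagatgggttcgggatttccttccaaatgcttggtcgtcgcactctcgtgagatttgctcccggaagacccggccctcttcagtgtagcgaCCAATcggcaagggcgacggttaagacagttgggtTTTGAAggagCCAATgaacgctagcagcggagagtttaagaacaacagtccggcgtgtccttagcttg
Top2a: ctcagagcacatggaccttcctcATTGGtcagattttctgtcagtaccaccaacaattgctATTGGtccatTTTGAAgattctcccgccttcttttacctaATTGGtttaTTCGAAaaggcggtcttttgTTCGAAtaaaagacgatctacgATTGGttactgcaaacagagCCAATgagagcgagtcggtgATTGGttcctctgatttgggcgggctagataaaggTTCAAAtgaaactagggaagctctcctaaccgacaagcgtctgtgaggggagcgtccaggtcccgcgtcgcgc
Ccnb1: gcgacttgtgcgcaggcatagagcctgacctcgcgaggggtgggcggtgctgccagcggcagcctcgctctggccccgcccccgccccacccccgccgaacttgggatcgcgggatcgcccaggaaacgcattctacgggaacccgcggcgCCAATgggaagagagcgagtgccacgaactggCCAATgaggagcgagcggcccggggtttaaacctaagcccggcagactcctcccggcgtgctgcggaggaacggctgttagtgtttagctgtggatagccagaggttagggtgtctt
In Plk1, Aurka and Cdc25b the CHR match begins 30, 32 and 7 bases after the start of transcription, and a CCAAT match begins 14, 19 and 28 bases before it, with another 51 bases before it in Aurka. In Cdc20 the CHR match lies before the start, by 18 bases, between CCAAT matches that begin 53 and 8 bases before it. Top2a holds 6 CCAAT and 4 CHR matches, and in Ccnb1 the CCAAT matches begin 99 and 67 bases before the start. In the other lists a CCAAT match was found in 71.4% of the windows of genes of G2 entry, 66.7% of those of inner kinetochore genes, 61.1% of those of DNA replication genes, 58.3% of those of cohesin genes, 14 of the 28 windows of other kinesins and spindle assembly genes, 42.1% of those of APC/C genes, 33.3% of those of MuvB, B-MYB and DREAM genes and 0 of the 4 windows of condensin II genes. A CHR match was found in 3 of the 4 windows of condensin II genes, 14 of the 28 windows of other kinesins and spindle assembly genes, 43.3% of those of inner kinetochore genes, 33.3% of those of cohesin genes and of MuvB, B-MYB and DREAM genes, 21.1% of those of APC/C genes, 16.7% of those of DNA replication genes and 7.14% of those of G2 entry genes. Both kinds occurred together in 32.1% of the windows of other kinesins, 30.0% of inner kinetochore genes, 16.7% of cohesin genes and of MuvB, B-MYB and DREAM genes, 13.9% of DNA replication genes, 7.14% of G2 entry genes, 5.26% of APC/C genes and 0 of condensin II genes.

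Among the cyclins, CDK1 and its activators, 1 of 7 members passed the threshold, and 6 of the 7 log2 fold changes were above 0. Of all genes tested, 3.67% were called higher and 50.7% were above 0. Cdc25b (ENSMUSG00000027330.16, chromosome 2 of GRCm38, 131186949 to 131198497) encodes a phosphatase that activates CDK1 at the centrosome before mitosis. It measured 81.1, 81.8 and 79.7 CPM in sgControl and 97.2 and 99.3 CPM in sgMef2d, here and throughout in the order of the replicate numbers. The groups did not overlap, and the log2 fold change was 0.28 (SE, the standard error, 0.059, edgeR quasi-likelihood adjusted p = 0.0142). The related phosphatase gene Cdc25c measured 20.5, 18.6 and 15.8 CPM in sgControl and 19.3 and 17.4 CPM in sgMef2d, with both sgMef2d libraries inside the sgControl range, and its log2 fold change of -0.0043 had a 95% interval from -0.27 to 0.26.

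Ccnb1 and Ccnb2, which encode the B-type cyclins, had log2 fold changes of 0.11 and 0.28 (edgeR quasi-likelihood adjusted p = 0.369 and 0.0996). Ccnb1 measured 217, 195 and 186 CPM in sgControl and 220 and 212 CPM in sgMef2d, so that the groups overlapped through sgControl replicate 1. Other genes, among them the pseudogene Ccnb1-ps, hold 23.4% of its 50-base words, so its reads could have been split in counting. Cdk1, the kinase that B-type cyclins activate, measured 271, 221 and 203 CPM in sgControl and 253 and 257 CPM in sgMef2d. The level in sgControl replicate 1 was the highest of all 5 libraries, and the log2 fold change of 0.14 had a 95% interval from -0.08 to 0.35. Without that library the log2 fold change of Cdk1 was 0.26 (adjusted p = 9.03e-08 by edgeR), that of Ccnb1 was 0.18 (adjusted p = 2.72e-04) and that of Ccnb2 was 0.34 (adjusted p = 0.00326), in a setting where 14.6% of all genes tested were called higher. Over all 15 alternative settings the log2 fold change ran from 0.05 to 0.26 for Cdk1 and from 0.07 to 0.18 for Ccnb1, and each passed the threshold in that setting alone, with adjusted p up to 0.805 and 0.780 by edgeR in the others. Ccna2, the A-type cyclin, lay between 253 and 262 CPM in all 5 libraries.

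Foxm1, the forkhead factor that activates many genes of this list, measured 158, 189 and 180 CPM in sgControl and 204 and 209 CPM in sgMef2d. Both sgMef2d libraries lay above the sgControl libraries, which were spread by their low replicate 1, and the log2 fold change was 0.24 (SE 0.075, edgeR quasi-likelihood adjusted p = 0.0824). Foxm1 passed the threshold without sgControl replicate 1 (log2 fold change 0.16, adjusted p = 0.00131 by edgeR) and with the length and GC trend removed (0.22, adjusted p = 0.0223), and not without sgControl replicate 2 (0.29, adjusted p = 0.0710).

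Of the 4 mitotic kinases grouped here, Plk1 and Aurka rose past the threshold, as 3.67% of all genes tested did. Nek2 and Ttk did not pass it. Plk1 (ENSMUSG00000030867.7, chromosome 7 of GRCm38, 122159439 to 122169873) encodes polo-like kinase 1, which acts from mitotic entry to cytokinesis. It measured 144, 153 and 149 CPM in sgControl and 177 and 174 CPM in sgMef2d, without overlap, a log2 fold change of 0.24 (SE 0.057, edgeR quasi-likelihood adjusted p = 0.0256). With the length and GC trend removed the log2 fold change of Plk1 was 0.16 (adjusted p = 0.0814 by edgeR). The pseudogene Plk-ps1 shares 6.56% of its 50-base words. Aurka (ENSMUSG00000027496.15, chromosome 2 of GRCm38, 172356190 to 172370535), the Aurora kinase of the centrosomes and spindle poles, measured 128, 126 and 119 CPM in sgControl and 143 and 151 CPM in sgMef2d, also without overlap, a log2 fold change of 0.24 (SE 0.061, adjusted p = 0.0328 by edgeR). Without sgControl replicate 2 the log2 fold change of Aurka was 0.25 (adjusted p = 0.0982 by edgeR). Aurka passed the threshold in 10 of 15 alternative settings. Ttk, the kinase that starts spindle checkpoint signalling, measured 61.6, 54.9 and 57.5 CPM in sgControl and 60.4 and 54.1 CPM in sgMef2d, where the sgMef2d libraries spanned nearly the sgControl range (log2 fold change -0.02, 95% interval from -0.19 to 0.15).

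The chromosomal passenger complex corrects faulty attachments at the centromere and later moves to the midzone of the spindle. Its 4 members, Aurkb, Birc5, Cdca8 and Incenp, were each higher in both sgMef2d libraries than in every sgControl library, and 1 of the 4, Aurkb, passed the threshold (of all genes tested, 20.6% lay above every sgControl library in this way and 3.67% were called higher). Aurkb (ENSMUSG00000020897.12, chromosome 11 of GRCm38, 69045647 to 69051664), the kinase of the complex, measured 85.2, 87.6 and 85.1 CPM in sgControl and 104 and 107 CPM in sgMef2d. The log2 fold change of Aurkb, 0.30 (SE 0.058, edgeR quasi-likelihood adjusted p = 0.00998), was the highest of the 49 members. Birc5, which encodes survivin, measured 140, 121 and 120 CPM in sgControl and 150 and 152 CPM in sgMef2d, a log2 fold change of 0.25 (adjusted p = 0.0635 by edgeR), with sgControl replicate 1 closest to the sgMef2d libraries. Incenp, the scaffold of the complex, measured 202, 216 and 221 CPM in sgControl and 237 and 232 CPM in sgMef2d, a log2 fold change of 0.14 (adjusted p = 0.189), the lowest of the 4.

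**Figure D3:**
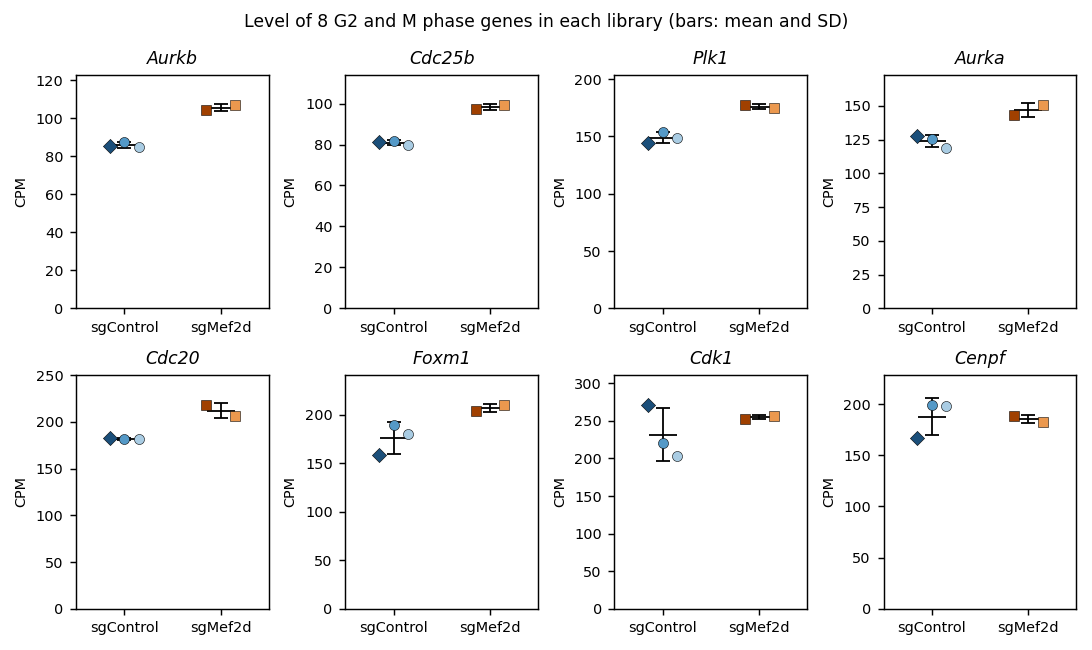
Each panel shows the CPM of a gene (y axis, starting at 0) in the 3 sgControl and 2 sgMef2d libraries, with symbols as in the plot of ratios by library and bars for the mean and SD of each group. Aurkb, Cdc25b, Plk1, Aurka and Cdc20 passed the threshold, while Foxm1, Cdk1 and Cenpf show sgControl replicate 1 apart from the other sgControl libraries.

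Of 7 genes of the spindle checkpoint and of anaphase onset, all had log2 fold changes above 0, beside 50.7% of all genes tested. Of these 7, 1 passed the threshold, Cdc20, where 3.67% of all genes tested were called higher. Cdc20 (ENSMUSG00000006398.15, chromosome 4 of GRCm38, 118432901 to 118437352) encodes the activator of the APC/C that the checkpoint inhibits. It measured 183, 181 and 181 CPM in sgControl and 218 and 206 CPM in sgMef2d, and the difference, a log2 fold change of 0.22 (SE 0.056, edgeR quasi-likelihood adjusted p = 0.0344), exceeded the spread of the sgControl libraries. With the length and GC trend removed it was 0.14 (adjusted p = 0.118 by edgeR). Of its 50-base words 10.4% occur in other genes, among them Gm7856. Bub1, a checkpoint kinase at the kinetochore, measured 98.7, 97.8 and 95.6 CPM in sgControl and 103 and 98.2 CPM in sgMef2d, with an overlap of the groups and the lowest log2 fold change of these 7 genes, 0.04. Pttg1, which encodes securin, the inhibitor of separase, measured 29.4, 25.3 and 23.7 CPM in sgControl and 28.4 and 27.0 CPM in sgMef2d, with both sgMef2d libraries inside the sgControl range (log2 fold change 0.07, 95% interval from -0.15 to 0.30). Ube2c, the ubiquitin-conjugating enzyme that works with the APC/C, was the most abundant member per length, at a mean of 97.9 CPM per kilobase of exon in sgControl, next to Cdc20 at 97.3 and Top2a at 97.2, which do not differ from it beyond the spread of the libraries.

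None of the 7 centromere and kinetochore genes passed the threshold, where 3.67% of all genes tested were called higher. Their log2 fold changes were above 0 in 6 of the 7, beside 50.7% of all genes tested. Cenpa, the histone variant that marks the centromere, had the highest, with 160, 152 and 145 CPM in sgControl and 169 and 174 CPM in sgMef2d (log2 fold change 0.17, SE 0.062, edgeR quasi-likelihood adjusted p = 0.129). Cenpf, a large protein of the outer kinetochore, had the lowest, with 167, 199 and 198 CPM in sgControl and 188 and 183 CPM in sgMef2d. Its sgControl replicate 1 was the lowest library and its sgControl replicates 2 and 3 the highest, and the log2 fold change of -0.02 changed sign when some of the libraries were left out. Cenpe, the kinesin that carries chromosomes towards the spindle equator, measured 126, 137 and 138 CPM in sgControl and 149 and 137 CPM in sgMef2d, with an overlap of the groups. The NDC80 complex genes Ndc80, Nuf2, Spc24 and Spc25, which hold the ends of the microtubules, had log2 fold changes of 0.08, 0.02, 0.11 and 0.12, and that of Nuf2 changed sign in 3 of 15 alternative settings.

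Among the spindle motors and microtubule binders 0 of 7 passed the threshold, where 3.67% of all genes tested were called higher. In 5 of the 7 the log2 fold change was above 0, beside 50.7% of all genes tested. Dlgap5, which stabilizes spindle fibres near the chromosomes, measured 26.7, 25.5 and 28.0 CPM in sgControl and 33.0 and 31.4 CPM in sgMef2d without overlap (log2 fold change 0.27, SE 0.081, edgeR quasi-likelihood adjusted p = 0.0667), and Hmmr followed at a log2 fold change of 0.21 (adjusted p = 0.110). Kif11, the motor that pushes the spindle poles apart, measured 151, 162 and 159 CPM in sgControl and 160 and 152 CPM in sgMef2d, all inside one range (log2 fold change -0.0073, 95% interval from -0.14 to 0.12). Kif2c, a kinesin that shortens microtubules at the centromere, measured 72.0, 67.1 and 62.4 CPM in sgControl and 65.0 and 66.6 CPM in sgMef2d (log2 fold change -0.03).

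Of 6 central spindle and cytokinesis genes, 0 passed the threshold, where 3.67% of all genes tested were called higher. Kif20a, a kinesin of the midzone, measured 145, 132 and 132 CPM in sgControl and 151 and 152 CPM in sgMef2d (log2 fold change 0.15, edgeR quasi-likelihood adjusted p = 0.183), and 29.3% of its exonic bases overlap Cdc23 on the opposite strand. Racgap1 and Kif23, which form the centralspindlin complex, had log2 fold changes of 0.12 and 0.02, the latter with a change of sign in 2 of 15 alternative settings. Anln, which encodes anillin, a scaffold of the contractile ring, measured 405, 402 and 416 CPM in sgControl and 405 and 396 CPM in sgMef2d, with overlapping groups and a log2 fold change of -0.03 (95% interval from -0.15 to 0.09).

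Of the 7 genes for chromosome structure, 0 passed the threshold, where 3.67% of all genes tested were called higher. Top2a, the topoisomerase that untangles chromatids, measured 853, 865 and 909 CPM in sgControl and 1006 and 978 CPM in sgMef2d without overlap (log2 fold change 0.18, SE 0.058, edgeR quasi-likelihood adjusted p = 0.0896). Mki67, which encodes the proliferation marker Ki-67, measured 611, 726 and 731 CPM in sgControl and 734 and 719 CPM in sgMef2d. Only sgControl replicate 1 lay apart, and the log2 fold change of Mki67 was 0.08 (95% interval from -0.10 to 0.25) with all libraries and -0.0053 without sgControl replicate 1. Within condensin, the complex that compacts chromosomes, the subunit genes had a range of values. Ncaph and Ncapd2 had log2 fold changes of 0.19 and 0.17, Ncapg and Smc2 of 0.0012 and 0.0052, and Smc4 of -0.11. Ncapg and Smc2 changed sign in 6 and 3 of 15 alternative settings. Smc4 measured 363, 342 and 357 CPM in sgControl and 328 and 329 CPM in sgMef2d, the only member whose sgMef2d libraries both lay below the sgControl libraries (adjusted p = 0.281 by edgeR). Differences between the subunits were not tested.

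**Figure D4:**
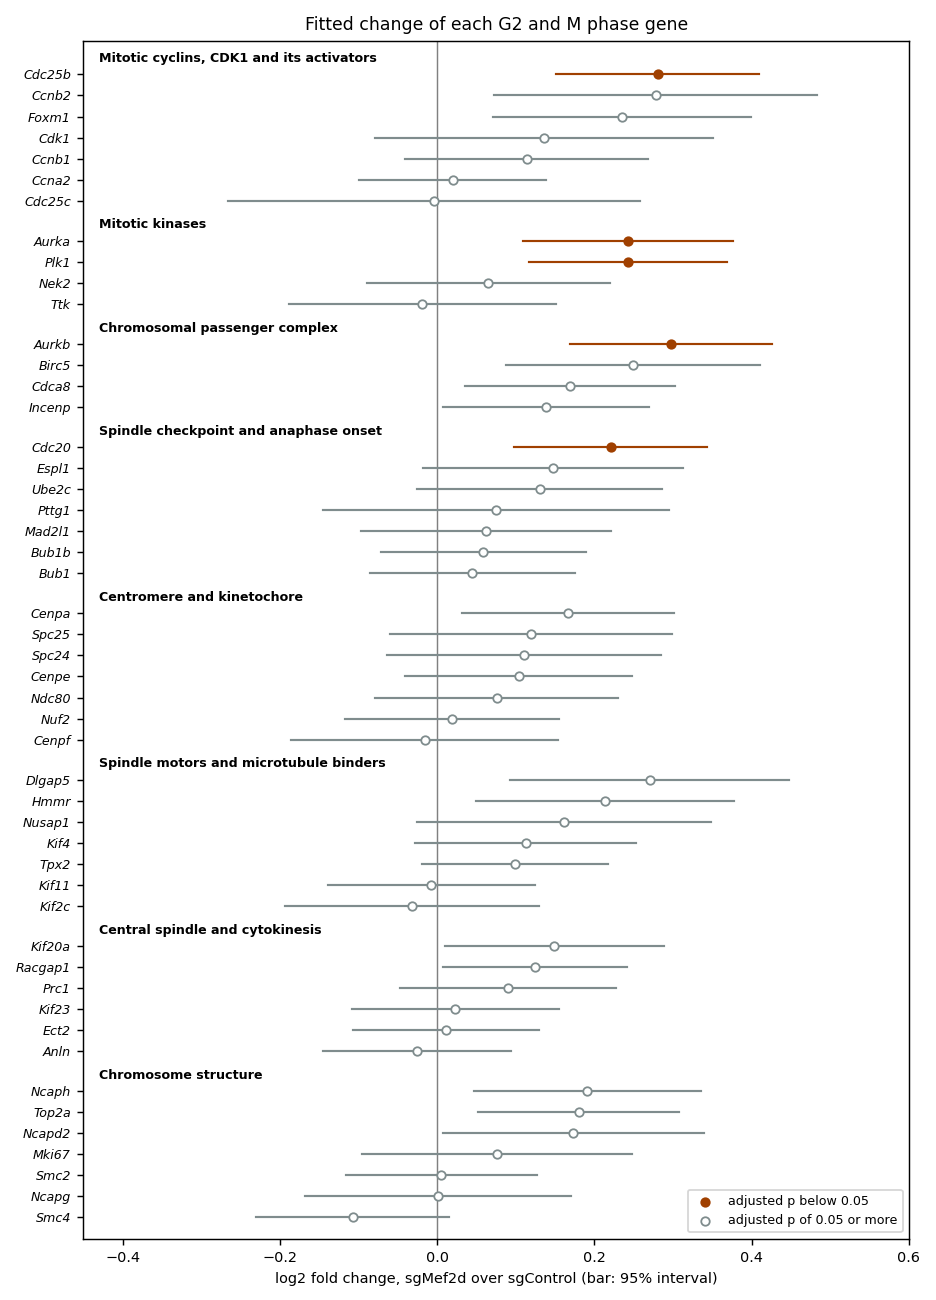
Points give the fitted log2 fold change (sgMef2d over sgControl) of each of the 49 members, grouped by role, and lines the 95% interval. Filled points mark the 5 members past the threshold, and 42 of the points lie to the right of 0.

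The wider mitotic machinery was described by 5 further lists, 91 genes in all, which were tested in the same fit. Of these 91 genes 3 rose past the threshold and 0 fell, with 54 log2 fold changes above 0 and a median of 0.04. The share higher past the threshold, 3.30%, was near the 3.67% of all genes tested. The 3 were Anapc11, a catalytic subunit of the APC/C (63.3 ± 3.06 CPM, SD, n = 3, in sgControl and 77.1 ± 4.05 CPM, SD, n = 2, in sgMef2d, log2 fold change 0.28), Kif18b, a kinesin of astral microtubules (0.27), and Tacc3, a spindle protein that Aurora A phosphorylates (0.22), with edgeR quasi-likelihood adjusted p between 0.0295 and 0.0372. Over 15 alternative settings, most of which kept all 5 libraries, Anapc11 passed in 10, Kif18b in 11 and Tacc3 in 9. By list, 1 of 17 APC/C genes, 2 of 28 genes of other kinesins and spindle assembly, 0 of 29 inner kinetochore genes, 0 of 14 cohesin genes and 0 of 3 condensin II genes passed. Among the 12 genes of the MuvB, B-MYB and DREAM complexes, which turn these promoters on or hold them off, 0 passed, and the median log2 fold change was -0.01.

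Of 14 genes that control the entry into mitosis or act as brakes on it, 3 were higher and 1 lower past the threshold, beside 3.67% and 4.28% of all genes tested. Cdkn1a, which encodes the CDK inhibitor p21, measured 46.5, 46.6 and 44.3 CPM in sgControl and 65.6 and 65.3 CPM in sgMef2d (log2 fold change 0.52, edgeR quasi-likelihood adjusted p = 7.88e-04). Sfn, which encodes 14-3-3 sigma, a protein that retains CDK1 and cyclin B in the cytoplasm, measured 76.2, 60.8 and 63.2 CPM in sgControl and 94.3 and 91.8 CPM in sgMef2d (log2 fold change 0.47, adjusted p = 0.00783). Gtse1, a microtubule-binding protein of G2 and mitosis that restrains p53, rose by 0.27 on the log2 scale (adjusted p = 0.0398 by edgeR). Gadd45a, a stress-induced gene whose product can inhibit CDK1, fell from 32.2, 30.3 and 26.6 CPM in sgControl to 22.4 and 22.4 CPM in sgMef2d (log2 fold change -0.42, adjusted p = 0.0240 by edgeR). Over 15 alternative settings Cdkn1a passed in all, Sfn in 13, Gadd45a in 12 and Gtse1 in 8. Each of the log2 fold changes of Cdkn1a, Sfn and Gadd45a was larger in size than that of any of the 49 members.

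The last list held 39 genes of DNA replication and S phase, the phase before G2. Of the 39, 35 log2 fold changes were above 0 with a median of 0.09, and 2 were higher past the threshold and 0 lower. These 2 were Tk1 and Tyms, which make thymidine nucleotides (log2 fold changes 0.30 and 0.25, edgeR quasi-likelihood adjusted p = 0.00762 and 0.0344), which passed in 13 and 9 of 15 alternative settings. Both sgMef2d libraries lay above every sgControl library in 51.3% of the S phase genes and 44.9% of the G2 and M phase genes. Among all genes tested this share was 20.6%. The log2 fold change was above 0 in 89.7% and 85.7% of these lists, beside 50.7% of all genes tested. The share higher past the threshold was 5.13% of the S phase genes and 10.2% of the G2 and M phase genes, beside 3.67% of all genes tested. These last shares rest on 2 and 5 genes, and the difference between the lists was not tested.

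**Figure D5:**
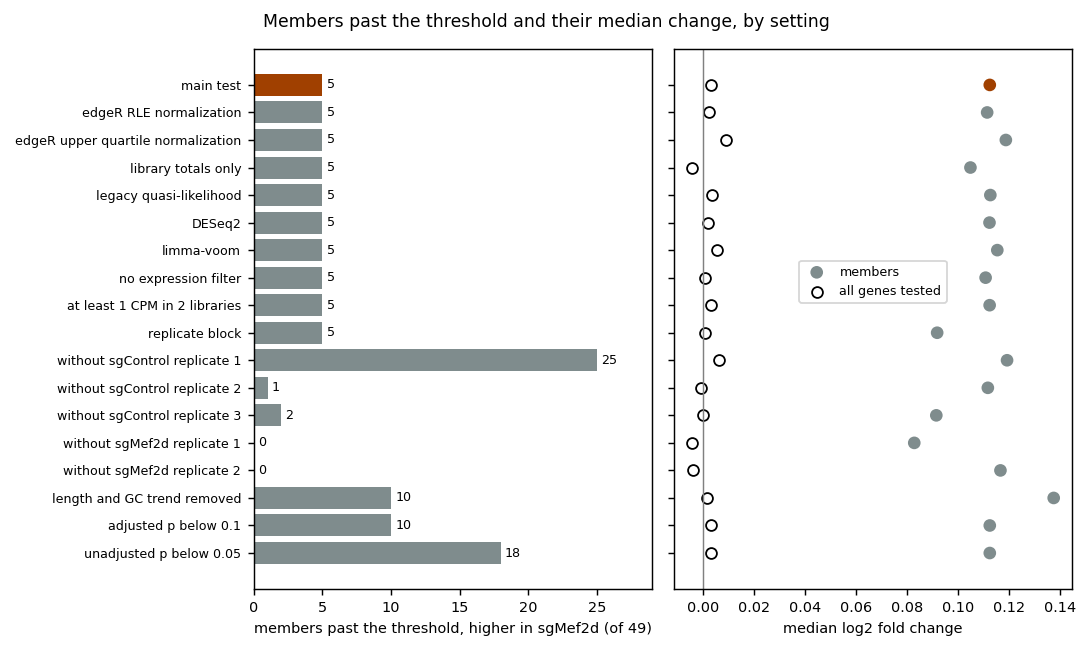
The bars give the number of the 49 members higher past the threshold under each setting, and the points give the median log2 fold change of the members (filled) and of all genes tested (open). The count moves from 0 to 25 with the libraries left out, while the median of the members stays above that of all genes tested in each setting.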

How the data were processed

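RNA of 5 EpH4 libraries was sequenced after poly(A) selection and a dUTP step that marks strand. The authors checked reads with FASTQC and RSeQC and aligned them with STAR to GRCm38 with GENCODE annotation, and the submitters' processing notes also name CASAVA and Subread. Whether counting used strand is not given in the sources used here. The deposited values are raw counts per gene for 12934 genes, each with at least 11 counts in a library, and they were used as deposited. The identifiers were matched to GENCODE M21 (12934 of 12934, 12811 with the same version) for symbols and exonic lengths.

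Counts were scaled by TMM, filtered by filterByExpr (12483 genes) and tested with edgeR 4.0.16 in R 4.3.3 (glmQLFit and glmQLFTest, Benjamini-Hochberg adjustment over all genes tested, adjusted p below 0.05). Errors are SD over libraries, and 95% intervals come from the fitted standard error and degrees of freedom. Alternatives used limma 3.58.1, DESeq2 1.42.0, other scalings and filters, a replicate block and each library left out. Removal of length and GC trends (loess, span 0.3) was added after seeing the data. The test was checked on simulated data with log2 changes of 0.5 and 1 in size, of which it called 70 of 102 and 89 of 96. Of 12138 unchanged genes it called 5. Changes as small as those of the members were not simulated, nor was the deviation of sgControl replicate 1 with length. The members and lists were chosen with earlier results of these data known. Named were the members past the threshold, the members with the highest and lowest log2 fold change in each role, Mki67, Top2a, Ccnb1, Cdk1, Plk1, Aurka, Aurkb, Cdc20, Cenpe, Cenpf, Kif11, Foxm1 and Pttg1, at most 4 genes past the threshold in each other list, and Mef2d. Members named beside these, such as Ccnb2, Ccna2, Birc5, Hmmr, Ube2c, Racgap1, Kif23, the NDC80 genes and the other condensin subunits, were chosen after their values were seen. Sharing of 50-base words and exonic overlap were computed from GENCODE transcripts.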

Additional observations from a re-analysis of the deposited data

How the results depend on the processing

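Under edgeR's RLE and upper quartile scaling, library totals, the legacy form of the test, DESeq2, limma-voom, no filter and a filter at 1 CPM, the 5 members past the threshold were the same genes in each, and 0 members were lower in any setting. In the other lists the main test called 9 genes, 8 higher and 1 lower. DESeq2 called 6, 5 higher and 1 lower, and the replicate block called 7, 5 higher and 2 lower. These counts need not hold the same genes. With 1 library left out, between 0 and 25 members, between 234 and 3639 of all genes and between 1 and 48 genes of the other lists passed, against 5, 992 and 9, and the median log2 fold change of the members lay between 0.083 and 0.12. Left out in turn, sgControl replicates 1, 2 and 3 gave 25, 1 and 2 members, and either sgMef2d library gave 0, where the lone sgMef2d library was assumed to vary like the sgControl libraries. With the length and GC trend removed, 10 members and 15 genes of the other lists passed and the median of the members was 0.14, and Plk1 (log2 fold change 0.16, edgeR quasi-likelihood adjusted p = 0.0814) and Cdc20 (0.14, 0.118) no longer passed. An adjusted p below 0.1 gave 10 members and 1584 genes, and an unadjusted p below 0.05 gave 18 members, 2901 genes and 32 genes of the other lists. The replicate numbers were not taken as pairs, since only 2 are shared and the labels do not call the libraries pairs. Deviations from the group means of same-numbered libraries had correlations of 0.011 and -0.00092. With 2 sgMef2d libraries these deviations mirror each other, so the correlations cannot decide whether libraries shared a batch. A replicate block moved the median of the members to 0.092 and gave 5 members, Aurkb, Cdc25b and Plk1 with Dlgap5 and Foxm1, and 1254 genes. Aurka and Cdc20 no longer passed (log2 fold change 0.21 and 0.22, edgeR quasi-likelihood adjusted p = 0.0916 and 0.0747), beside log2 fold changes of 0.24 and 0.22 in the main test. In the block sgControl replicate 3 stands alone, and without that library the unblocked test called 812 genes. Of the 49 members 12 changed sign in at least 1 of 15 settings, 6 from above 0 (Mki67, Kif23, Nuf2, Ect2, Smc2 and Ncapg) and 6 from below it, and without sgMef2d replicate 1 the number above 0 was 38. Under the replicate block Nuf2 was at -0.0092 and Ncapg at -0.040. Under the block Cenpf was also at 0.027 and Kif11 at 6.43e-04 on the log2 scale, Cdc25c was at 6.67e-05 with upper quartile scaling and 8.63e-05 with DESeq2, and with the length and GC trend removed Anln was at 0.040, Cenpf at 0.10, Cdc25c at 0.027, Ttk at 0.019 and Kif11 at 0.064. With 1 library left out, the log2 fold change lay between -0.096 and 0.026 for Cenpf, -0.096 and 0.097 for Cdc25c, -0.11 and 0.053 for Ttk, -0.081 and 0.022 for Kif2c, -0.0053 and 0.12 for Mki67, and -0.050 and 0.025 for Kif11. The cause of these changes was not tested.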
